A study of Mus musculus with 6 samples.

Results

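Lineage-determining transcription factors were followed in N9 microglia, an immortalized line derived from mouse brain, after stimulation with LPS, the outer-membrane lipopolysaccharide of gram-negative bacteria. The 9 genes described here were taken by name from a count table of 54532 genes: Cebpa, Cebpb, Cebpd, Cebpe and Cebpg of the C/EBP family, Spi1 (which encodes PU.1) and Ets2 of the ETS family, Runx1, and Prdm1 (which encodes Blimp-1). RNA-seq was performed on 3 libraries of untreated control cells and 3 libraries of cells given LPS at 1 µg/ml for 6 h, all of the same line and the same culture medium, with 16363767 to 17956772 counts per library. The question was which of these factors were up- or down-regulated in LPS-stimulated versus control N9 microglia, and how genes that bind with them or are known to be controlled by them behaved.

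The C/EBP proteins are leucine-zipper factors that bind DNA as pairs, with each other or with other leucine-zipper proteins. C/EBPα drives commitment to the granulocyte and monocyte lineages, C/EBPβ and C/EBPδ control acute-phase and inflammatory genes, C/EBPε acts late in granulocyte maturation, and C/EBPγ has no strong activation domain of its own and works mainly through its partners. PU.1 opens enhancers in macrophages and microglia, where C/EBP and RUNX proteins bind beside it, ETS2 is an ETS factor activated by MAP kinases, RUNX1 binds DNA together with CBFβ, and Blimp-1 is a zinc-finger repressor best known from plasma cells. Read counts per gene do not separate the long and short proteins that are made from the Cebpa and Cebpb mRNAs.

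In N9 microglia, 5 of the 9 factors were up-regulated by LPS (Prdm1, Ets2, Cebpd, Cebpb and Spi1), Cebpa was down-regulated, Cebpg and Runx1 did not pass the test, and Cebpe was too low to be tested. The test was edgeR's quasi-likelihood test on all genes, with p-values adjusted by Benjamini-Hochberg over the 12296 genes that passed a filter on low counts, and a gene was called at an adjusted p under 0.05. Of all tested genes, 18.7% were called higher and 15.7% lower, against 5 higher and 1 lower of the 8 factors tested. Prdm1 and Ets2 also passed the fold-change threshold for a differentially expressed gene (DEG), an absolute log2 fold change over 1.5, which 2.4% of tested genes passed upward and 0.252% downward. For 6 of the 8 tested factors the control and LPS libraries did not overlap, as was the case for 45.3% of all tested genes. The median log2 fold change was 0.78 over the 8 tested factors and 0.004 over all tested genes. Prdm1 passed the filter only through its LPS libraries, meaning that all 3 of them but not all 3 control libraries reached the level the filter asks for, so it could be tested only because it was high there; of the 7 other tested factors, 4 were higher, 1 was lower and 1 was a DEG, with a median of 0.585.

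The libraries were checked for cell identity and for RNA of other cells. Summed over 17 genes of microglia and macrophages, levels were 3130 to 3150 CPM, counts scaled to the size of the library, in control libraries and 2980 to 3060 in LPS libraries, but Aif1, P2ry12 and C1qa, defining genes of microglia, had at most 11 counts in any library. Control replicates 2 and 3 stood apart from the rest: the sum over 20 hepatocyte genes was 26.8 and 35.2 CPM there, compared with 5.31 CPM in control replicate 1 and 5.24 to 7.19 CPM in the LPS libraries. Ambp made up 4.69 to 7.03 CPM of each sum, and the other 19 genes summed to 19.7 and 29.2 CPM in control replicates 2 and 3, 0.292 CPM in control replicate 1 and 0.366 to 1.1 CPM in the LPS libraries. The numbers of factors called higher, lower and DEG were therefore also computed with control replicate 1 alone against the LPS libraries, and they were 5, 1 and 2. T-cell genes summed to 5.81 to 6.66 CPM in control and 8.84 to 11.3 CPM in LPS libraries. Astrocyte genes summed to 96 to 98.7 and 96 to 105 CPM, neuron genes to 26.3 to 28 and 27.7 to 32.3 CPM. Oligodendrocyte genes summed to 45.7 to 54.3 and 42.6 to 43.5 CPM. Most of these sums came from Lck for T cells, Gja1 and Aldh1l1 for astrocytes, Map2 and Tubb3 for neurons, and Mbp and Cnp for oligodendrocytes. At most 3 counts in every library were found for 6 of the 7 T-cell genes. The same held for 3 of the 7 genes in each of the astrocyte, neuron and oligodendrocyte lists. Lck (log2 fold change 0.62), Gja1 (0.18) and Tubb3 (1.67, a DEG) were called higher, and Aldh1l1 (-0.29), Map2 (-0.41) and Mbp (-0.34) lower. No source states that the libraries of a group came from separate cultures, so the p-values measure the spread between these libraries. In bulk RNA, fewer cells expressing a gene and less RNA per cell cannot be told apart.

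**Figure D1:**
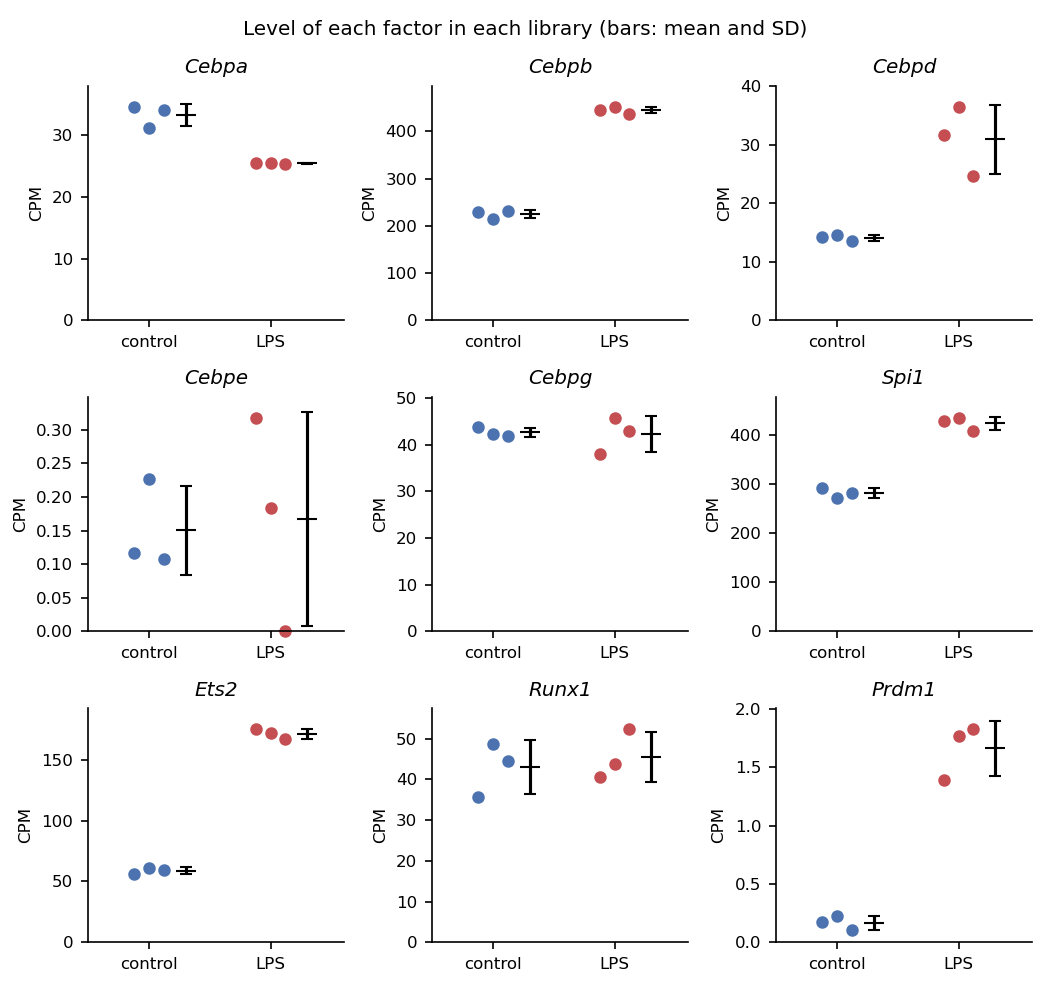
Level of the 9 factors in each library. Each panel has its own y axis, in CPM from 0, with points for the 3 control (blue) and 3 LPS (red) libraries and a black mark with bars for the mean and SD; Cebpb, Cebpd, Spi1, Ets2 and Prdm1 are higher in every LPS library, Cebpa is lower in every LPS library, and the groups overlap for Cebpe, Cebpg and Runx1.

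Cebpb was the most abundant of the factors per length of transcript in both groups and was up-regulated with LPS. Cebpb (ENSMUSG00000056501, chr2:167688915-167690418, plus strand, mm10) was at 229.9, 214.7 and 231.3 CPM in control replicates 1 to 3 and at 446.3, 451 and 437.8 CPM in LPS replicates 1 to 3. All LPS libraries lay far above all control libraries, and the spread within each group was small (225.3 ± 9.17 and 445.1 ± 6.71 CPM, SD, n = 3). The log2 fold change was 0.98 with a standard error (SE) of 0.043 (1.98-fold, edgeR adjusted p = 1.22e-10), and 4.16% of tested genes rose more. Exons of Tmem189 on the opposite strand share 312 of the 1504 exon bases of Cebpb, and no source states whether strand was used in counting. Tmem189 itself had a log2 fold change of 0.34 (SE 0.046, edgeR adjusted p = 3.73e-05).

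Cebpd, which like Cebpb is an early inflammatory member of the family, was up-regulated from a lower level. Cebpd (ENSMUSG00000071637, chr16:15887286-15891031, plus strand) was at 14.3, 14.57 and 13.56 CPM in control libraries and at 31.63, 36.41 and 24.72 CPM in LPS libraries. The LPS libraries spread more widely than the control libraries (30.92 ± 5.88 against 14.14 ± 0.525 CPM, SD, n = 3), but the groups did not overlap. Cebpd had a log2 fold change of 1.13 (SE 0.12, 2.19-fold, edgeR adjusted p = 3.84e-06), with a range of 0.99 to 1.27 when each library was left out in turn. Spidr on the opposite strand shares 562 of the 3746 exon bases of Cebpd, and it was lower with LPS (log2 fold change -0.25, SE 0.082, edgeR adjusted p = 0.0291).

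Cebpa was the factor that fell. Cebpa (ENSMUSG00000034957, chr7:35119293-35121928, plus strand) was at 34.56, 31.18 and 34.16 CPM in control libraries and at 25.54, 25.55 and 25.39 CPM in LPS libraries. Every LPS library was lower than every control library, and the LPS libraries were almost identical (33.3 ± 1.85 and 25.5 ± 0.0904 CPM, SD, n = 3). LPS changed Cebpa by a log2 fold change of -0.39 (SE 0.074, edgeR adjusted p = 0.000834), a level 1.31-fold higher in control cells, and 10.5% of tested genes fell more. Cebpa is also made by hepatocytes, whose genes were counted in control replicates 2 and 3. With control replicate 1 as the only control library, the log2 fold change was -0.44 (edgeR adjusted p = 0.00927).

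Cebpg, a neighbour of Cebpa on chromosome 7 whose gene ends 62720 bases before the start of Cebpa, gave no call. Cebpg (ENSMUSG00000056216, chr7:35046422-35056573, minus strand) was at 43.78, 42.23 and 41.85 CPM in control libraries and at 38.03, 45.62 and 42.87 CPM in LPS libraries. The groups overlapped, with the lowest and the highest library both among the LPS libraries. Its log2 fold change was -0.015 (SE 0.071, edgeR adjusted p = 0.899), with a 95% interval of -0.15 to 0.12.

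Cebpe, the factor of late granulocyte maturation, was near the limit of counting. Cebpe (ENSMUSG00000052435, chr14:54710360-54712174, minus strand) had 2, 4 and 2 counts in control libraries and 5, 3 and 0 in LPS libraries, where 3 counts correspond to 0.161 to 0.19 CPM. It did not pass the filter on low counts, and a difference was not detectable at this depth. The 12 genes of neutrophils and their precursors summed to 6.19 to 6.69 CPM in control and 11.2 to 12.4 CPM in LPS libraries; Ly6g, Ms4a3 and Ctsg were at 0 counts, 7 of the 12 had at most 3 counts in every library, and S100a8 made up most of the sum.

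The deposited gene lengths, which for these 9 genes equal the union of their annotated exons, allowed the C/EBP family to be compared as a pool. Cebpb made up most of the pool in every library, its share was higher in each LPS library than in any control library, and the shares of Cebpa and Cebpg were lower in each LPS library than in any control library. Per kilobase, Cebpb was 86, 85.9 and 86.4% of the summed C/EBP counts in control libraries and 92.2, 91.6 and 92.4% in LPS libraries. Cebpa was 7.38, 7.12 and 7.29% in control libraries and 3.01, 2.96 and 3.06% in LPS libraries. These shares did not overlap between groups and differed by 5.92 and -4.25 percentage points, each with an exact two-sided permutation p of 0.1, the smallest that 3 against 3 libraries can give. The shares of a library add up to the whole, so these differences are not independent of each other. Not scaled by length, the shares of Cebpb and Cebpg differed by 10.5 and -5.76 percentage points. The share of Cebpg was 4.36% and 2.33% on average in control and LPS libraries (exact permutation p = 0.1), while its own level was 42.62 and 42.17 CPM and was not called, so that its smaller share restates the larger pool. The share of Cebpd, at 2.17% and 2.56%, overlapped between groups (exact permutation p = 0.3). Cebpe took 0.0705% and 0.0414% on average (exact permutation p = 0.4).

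The ratio of Cebpb to Cebpa per kilobase was 11.7, 12.1 and 11.9 in control libraries and 30.6, 30.9 and 30.2 in LPS libraries. The ratio of Cebpb to Cebpd was 39.7 ± 2.9 in control and 36.7 ± 6.76 in LPS libraries (SD, n = 3), so that these inflammatory members kept ratios that overlapped between groups. Summed over the family, the level was 174 ± 6.69 CPM per kilobase in control and 321 ± 6.32 in LPS libraries (SD, n = 3).

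**Figure D2:**
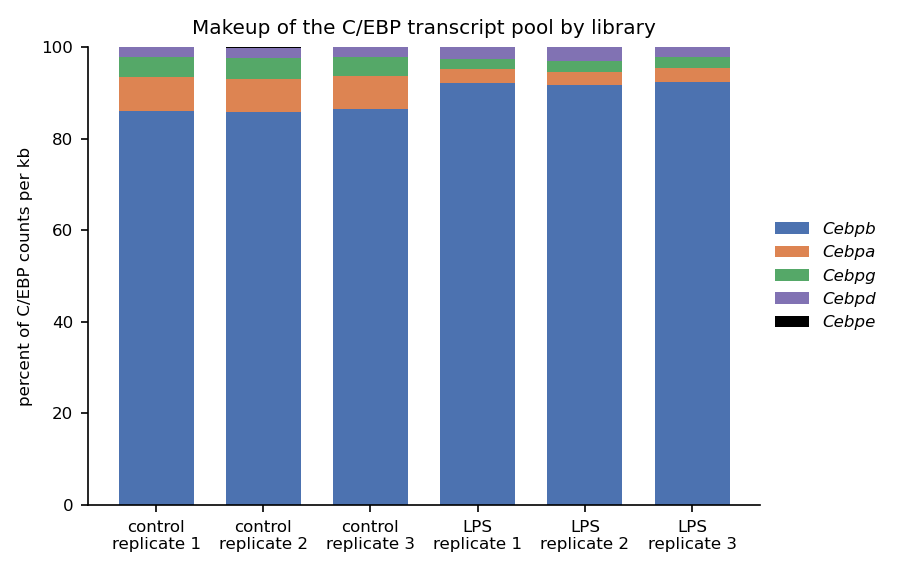
Makeup of the C/EBP transcripts in each library. Each stacked bar is a library and its height is the percent of summed C/EBP counts per kilobase; Cebpb takes 85.9 to 86.4% in control and 91.6 to 92.4% in LPS libraries, and Cebpa takes 7.12 to 7.38% in control and 2.96 to 3.06% in LPS libraries.

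The bases before the transcription starts of Cebpa, Cebpb and Prdm1 are shown. These genes are the member that fell, the member that rose with the highest level per length of transcript, and the member with the largest fold change. The windows hold the 250 bases before the start in RefSeq (build GRCm38.p6), which has entries for 6 of the 9 factors in the table used; Cebpd, Cebpe and Spi1 are not shown. They lie at chr7:35119043-35119292 (plus strand) for Cebpa, inside the antisense gene Gm45091 but outside its exons, chr2:167688665-167688914 (plus strand) for Cebpb, inside the Tmem189 gene but outside its exons, and chr10:44458749-44458998 (minus strand) for Prdm1, inside the annotated gene but outside its exons. Capitals mark TATAAA in Cebpa and GGGCGG, the letters of a GC box, in Cebpb.
Cebpa: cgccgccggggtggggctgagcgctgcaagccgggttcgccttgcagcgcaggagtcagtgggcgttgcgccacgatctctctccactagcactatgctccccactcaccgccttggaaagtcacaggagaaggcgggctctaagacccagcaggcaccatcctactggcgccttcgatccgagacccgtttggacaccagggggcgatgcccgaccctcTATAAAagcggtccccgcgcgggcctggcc
Cebpb: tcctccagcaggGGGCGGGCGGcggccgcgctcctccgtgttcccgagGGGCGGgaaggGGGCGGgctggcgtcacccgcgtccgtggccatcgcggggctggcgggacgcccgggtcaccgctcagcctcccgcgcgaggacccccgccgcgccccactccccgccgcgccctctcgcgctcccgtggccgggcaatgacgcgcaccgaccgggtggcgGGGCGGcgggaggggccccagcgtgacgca
Prdm1: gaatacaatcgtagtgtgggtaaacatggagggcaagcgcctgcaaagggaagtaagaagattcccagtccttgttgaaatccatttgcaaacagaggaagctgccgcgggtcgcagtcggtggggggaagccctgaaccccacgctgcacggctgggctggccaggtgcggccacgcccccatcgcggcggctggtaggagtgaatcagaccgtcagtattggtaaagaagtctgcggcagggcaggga

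The 3 windows differed in base composition and in the letters they held. G and C made up 66.4% of the Cebpa window, 81.6% of the Cebpb window and 59.2% of the Prdm1 window. In Cebpa, TATAAA began 30 bases before the start, a match found in 12.4% of the 32851 promoter windows of the same length. In Cebpb, GGGCGG occurred 5 times, the first pair overlapping, and 32.7% of windows held it. TATAAA was not in the Cebpb window but lay 22 bases after its annotated start. The windows therefore do not set Cebpa and Cebpb apart by TATAAA. The other letters searched on both strands were TTGCNNAA for C/EBP (9.56% of windows), TGACGTCA for CREB and ATF (1.55%), TGACGT that is contained in it (6.47%), GGNNTTTCC for NF-κB (4.93%), GAAANNGAA for interferon-responsive factors (7.13%), GAGGAAGT for PU.1 (2.44%) and TTCNNNGAA for STAT (7.02%). None of these was found in the Cebpa, Cebpb or Prdm1 window, and the Prdm1 window held no match to TATAAA or GGGCGG either, which says only that these letters are not in these bases. Windows of Cebpg, Runx1 and Ets2 were searched as well and are not printed. A window of Runx1 held GGAAAGGCC, a match to the NF-κB letters on the other strand, Ets2 held GGGCGG, and Cebpg held no match.

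The ETS factors Spi1 and Ets2 were both up-regulated. Spi1 (ENSMUSG00000002111, chr2:91082390-91115756, plus strand) was at 292.8, 272.3 and 282 CPM in control libraries and at 428.6, 433.8 and 408.3 CPM in LPS libraries. Every LPS library was higher than every control library (282.4 ± 10.2 and 423.6 ± 13.5 CPM, SD, n = 3). Spi1 had a log2 fold change of 0.585 (SE 0.043, 1.5-fold, edgeR adjusted p = 5.43e-08), and 7.96% of tested genes rose more. Ets2 (ENSMUSG00000022895, chr16:95702075-95721051, plus strand) was at 55.93, 61.39 and 59.44 CPM in control libraries and at 174.9, 172 and 167 CPM in LPS libraries. The groups were far apart and each was narrow (58.92 ± 2.77 and 171.3 ± 3.97 CPM, SD, n = 3). The log2 fold change was 1.54 (SE 0.049, 2.91-fold, edgeR adjusted p = 3.49e-12). This value lay just over the DEG threshold and was 1.49 without control replicate 1, the control library with the lowest Ets2, so that Ets2 was then called higher but was not a DEG.

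Runx1, which pairs with CBFβ to bind beside PU.1 and C/EBP proteins, gave no call. Runx1 (ENSMUSG00000022952, chr16:92601466-92826149, minus strand) was at 35.73, 48.75 and 44.49 CPM in control libraries and at 40.5, 43.73 and 52.31 CPM in LPS libraries. The groups overlapped over most of their range. The log2 fold change was 0.082 (SE 0.11, edgeR adjusted p = 0.607) with a 95% interval of -0.13 to 0.29, and it took values from -0.044 to 0.17 when each library was left out in turn.

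Prdm1 had the largest fold change of the factors and, beside Cebpe, the lowest level per length. Prdm1 (ENSMUSG00000038151, chr10:44437177-44528501, minus strand) had 3, 4 and 2 counts in control libraries, which is at the limit of counting, and 22, 29 and 30 counts in LPS libraries. Every LPS library was well above every control library (0.1698 ± 0.0598 and 1.663 ± 0.235 CPM, SD, n = 3). Prdm1 had a log2 fold change of 3.25 (SE 0.44, 9.49-fold, 95% interval 2.39 to 4.11, edgeR adjusted p = 3.64e-05), and 86 tested genes, 0.699% of them, rose more. With a prior count of 2 in place of edgeR's default the log2 fold change was 2.64. Of 8 genes of B and plasma cells, the cells in which Blimp-1 is best known, Ms4a1 was at 0 counts in every library and 6 had at most 3 counts; their sum of 146 to 169 CPM in control and 402 to 416 CPM in LPS libraries came mostly from Sdc1.

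**Figure D3:**
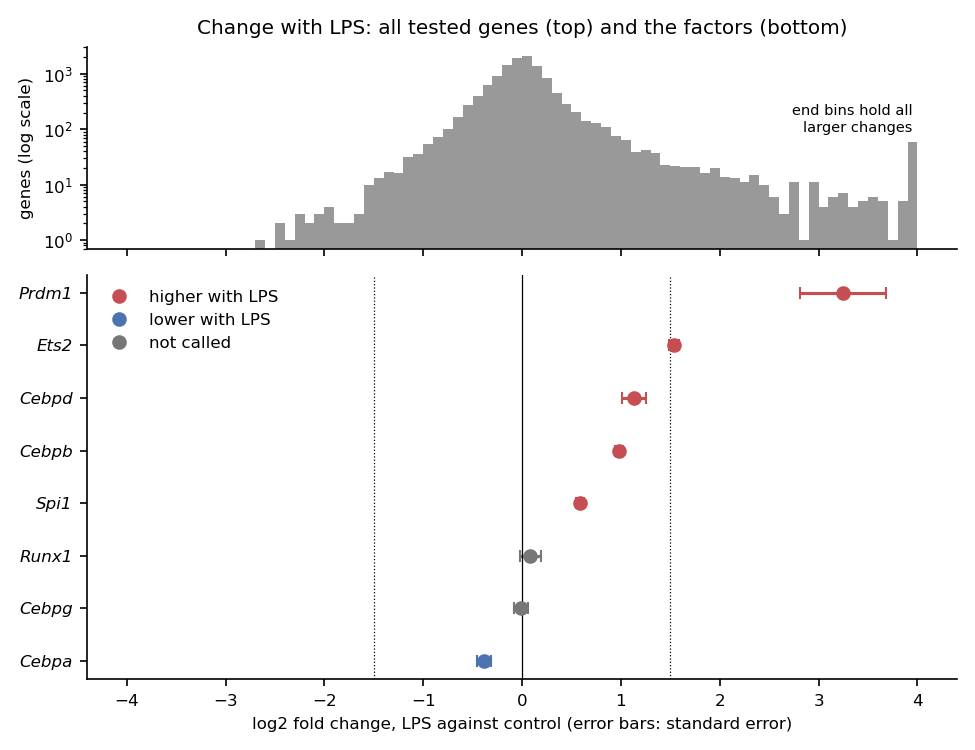
Change of the 8 tested factors beside that of all tested genes. The top panel is a histogram of the log2 fold change, LPS against control, of 12296 genes on a log count axis, and the bottom panel gives the factors with standard errors and dotted lines at the DEG threshold of 1.5 in either direction; Prdm1 at 3.25 and Ets2 at 1.54 lie beyond it, Cebpd, Cebpb and Spi1 between 0.585 and 1.13, and Cebpa at -0.39.

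Ordered by level per kilobase, Cebpb (150 ± 6.1 CPM per kilobase, SD, n = 3) and Spi1 (105 ± 3.8) led in control cells, followed by Cebpa (12.6 ± 0.701), Ets2 (10.2 ± 0.48), Cebpg (7.58 ± 0.182), Cebpd (3.78 ± 0.14) and Runx1 (3.58 ± 0.552). Only Cebpd and Runx1 overlapped among these neighbours in the order. In LPS-stimulated cells Cebpb (296 ± 4.46) and Spi1 (157 ± 5.01) still led, and Ets2 (29.6 ± 0.687) stood above Cebpa (9.67 ± 0.0343), Cebpd (8.25 ± 1.57), Cebpg (7.5 ± 0.683) and Runx1 (3.78 ± 0.507). There the libraries of Cebpd overlapped those of both Cebpa and Cebpg. Prdm1, at 0.0304 and 0.298 ± 0.0421 CPM per kilobase, and Cebpe, at 0.121 and 0.134, were lowest in both groups. The length used for Runx1 is the union of the exons of many transcripts, 12025 bases, which lowers its value per kilobase.

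Batf2 was the DEG among partners and regulators of the C/EBP proteins. Of 14 such genes in the table, 10 were tested, 4 were higher, 1 was lower, and their median log2 fold change was 0.17, compared with 18.7% higher, 15.7% lower and a median of 0.004 over all tested genes. Batf2 passed the filter only through its LPS libraries, and without it 3 of 9 were higher. Batf2, a leucine-zipper partner of AP-1 and IRF proteins, had 10, 6 and 15 counts in control and 56, 68 and 49 in LPS libraries (log2 fold change 2.60, SE 0.32, edgeR adjusted p = 1.44e-05). Atf4, a stress-response factor that can pair with C/EBP proteins, rose slightly (0.15, SE 0.04, adjusted p = 0.00955), as did Trib1, which brings C/EBPα to the COP1 ubiquitin ligase (0.37, SE 0.09, adjusted p = 0.00559). Nfil3, a leucine-zipper repressor, was down-regulated (-0.75, SE 0.096, adjusted p = 2.08e-05). The number called higher was 2 in place of 4 without control replicate 3 and with control replicate 1 alone.

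Of 19 genes known as C/EBP targets in macrophages, 12 were tested and 12 were called higher, but 5 of these (Csf3, Lcn2, Nos2, Il1b and Ccl5) passed the filter only through their LPS libraries, so that being tested was tied to being higher. The other 7 were called higher, 3 of them as DEG, with a median log2 fold change of 1.43 compared with 1.85 over the 12. Over all tested genes that did not pass through 1 group alone, 18.4% were higher. Like the other lists, this list was chosen with earlier results of these data known. Its share set against that of all genes is therefore a description and not a test. Saa3, an acute-phase protein, went from 60.9 to 346 CPM on average (log2 fold change 2.51, SE 0.086, edgeR adjusted p = 7.14e-12), and Hp, which encodes haptoglobin, from 50.8 to 127 CPM (1.32, SE 0.046, adjusted p = 8.74e-12). Socs3, an inhibitor of cytokine signalling, went from 39.2 to 165 CPM (2.08, SE 0.048, adjusted p = 8.21e-14), and Ccl3, a chemokine, from 199 to 585 CPM (1.56, SE 0.045, adjusted p = 1.26e-12). Named for their role and chosen after their values were seen, Nos2 was at least 120-fold and Csf3 at least 42.2-fold higher against a floor of 3 counts per library. Il6, also outside the rule, had 0 counts in control libraries and 10, 14 and 9 in LPS libraries and was below the filter. Many of these genes are also known targets of NF-κB, and binding of C/EBP proteins was not measured.

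Genes listed as neutrophil granule genes, many of which C/EBPε and C/EBPα control in granulocytes, were mostly at or near 0 counts. The list also holds neutrophil genes whose products are not granule proteins, such as Ly6g and S100a8. Of 15, only 4 were tested, and 8 had at most 3 counts in every library. S100a8, which encodes a calprotectin subunit found mainly in the cytosol, was higher (4 to 10.7 CPM, log2 fold change 1.41, SE 0.14, edgeR adjusted p = 1.89e-06). Mmp8 passed the filter only through its control libraries and was lower, with 32, 29 and 21 counts in control and 11, 10 and 12 in LPS libraries (-1.17, SE 0.35, adjusted p = 0.017), a call that was lost with DESeq2, with control replicate 1 alone, and without control replicate 1, control replicate 2 or LPS replicate 1.

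Of 20 PU.1 target genes, all were tested, 9 were higher, 6 were lower and 5 were not called, and their median log2 fold change was 0.053. These are shares of 45% higher and 30% lower, compared with 18.7% and 15.7% of all tested genes. None of the 20 was a DEG, and some called changes were small, as for Ncf4 (0.151, SE 0.042) and Ncf1 (-0.129, SE 0.042). The size of change that can be called depends on the level of counts. The shares were not compared at matched levels. Cybb, the catalytic subunit of the phagocyte NADPH oxidase, had the largest rise of the 20 (179 to 447 CPM, log2 fold change 1.32, SE 0.046, edgeR adjusted p = 8.28e-12). The interleukin-4 receptor chain Il4ra (1.14, SE 0.091, adjusted p = 1.42e-07), the high-affinity IgG receptor Fcgr1 (1.12, SE 0.076, adjusted p = 2.09e-08) and the integrin chain Itgb2 (0.44, SE 0.04, adjusted p = 6.57e-07) were also higher. Outside the rule and chosen after their values were seen, Tlr4, which encodes the receptor for LPS, was lower (-0.52, SE 0.056, adjusted p = 3.64e-06), and Csf1r, the receptor on which microglia depend, was slightly higher (0.16, SE 0.039, adjusted p = 0.00517).

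Of 25 genes listed as other ETS factors, 15 were tested, 3 were higher and 6 lower, and the median log2 fold change was -0.054. The list includes Gabpb1, a partner subunit rather than an ETS factor, which was not called (-0.164, SE 0.072, edgeR adjusted p = 0.0967). The share called higher, 20%, is near the 18.7% of all tested genes, and 40% were lower compared with 15.7% of all tested genes. The related PEA3-group genes Etv1 (214 to 112 CPM, log2 fold change -0.93, SE 0.06, edgeR adjusted p = 1.27e-08), Etv5 (-0.94, SE 0.093, adjusted p = 1.34e-06) and Etv4 (-0.74, SE 0.16, adjusted p = 0.00263) were all down-regulated. Elk3 was lower by a smaller amount (-0.18, SE 0.046, adjusted p = 0.00638). The closest relatives of PU.1, Spib and Spic, had at most 2 counts in any library. The number called higher was 1 without control replicate 1, control replicate 3 or LPS replicate 2, and the number called lower was 3 with control replicate 1 alone.

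Among 9 RUNX genes and partners, 7 were tested, 1 was higher and 2 were lower, numbers too small to set the list apart from the 18.7% and 15.7% of all tested genes. Cbfb, the obligate partner of RUNX1, was at 167 CPM in control and 132 CPM in LPS libraries on average (log2 fold change -0.34, SE 0.046, edgeR adjusted p = 4.27e-05), and the corepressor Tle1 was also lower (-0.27, SE 0.058, adjusted p = 0.00212). Runx3 was higher (29.7 to 37.2 CPM, 0.32, SE 0.08, adjusted p = 0.00591). Without control replicate 1, 2 genes of this list were called higher.

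Prdm1 was also set beside its family and its targets. Of the 14 other PRDM genes, 9 had at most 3 counts in every library, 5 were tested and 2 were higher (18.7% of all tested genes were), Prdm4 (log2 fold change 0.26, SE 0.066, edgeR adjusted p = 0.00638) and Prdm2 (0.23, SE 0.071, adjusted p = 0.0195). Only 1 of these was called without control replicate 1, control replicate 3 or LPS replicate 3. Genes listed as targets that Blimp-1 represses in other immune cells numbered 10, of which 6 were tested. Of these, Pax5 and Cd83 passed the filter only through their LPS libraries; of the other 4, 2 were higher and 0 lower by edgeR, with 0 lower at an unadjusted p under 0.05 and 0 by DESeq2, a number too small to read against the 15.7% of all tested genes called lower. Myc went from 3.41 to 26.4 CPM (2.95, SE 0.14, adjusted p = 2.96e-10), and Bcl6, the germinal-centre repressor that opposes Blimp-1, from 42.8 to 52.3 CPM (0.29, SE 0.06, adjusted p = 0.0016). Cd83 had 2, 2 and 4 counts in control and 24, 13 and 20 in LPS libraries (2.91, SE 0.52, adjusted p = 0.000442). Pax5, the B-cell identity factor and outside the rule, had 0 counts in control and 18, 11 and 10 in LPS libraries, at least 4.78-fold higher. The median log2 fold change was 1.6 over the 6 genes, 1.27 with Pax5 at that bound and 0.12 over the 4 genes.

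Of 30 other factors of the myeloid lineage, 21 were tested, 5 were higher, 7 lower and 9 not called, with a median log2 fold change of -0.18. Maf and Egr1 passed the filter only through their LPS libraries, and of the other 19, 21.1% were higher and 36.8% lower, compared with 18.4% and 16% of all genes tested on that condition. Mef2c, which is active in microglia (176 to 94.7 CPM, log2 fold change -0.89, SE 0.05, edgeR adjusted p = 2.31e-09), its relative Mef2a (-0.64, SE 0.043, adjusted p = 1.81e-08) and the stem-cell factor Lyl1 (-0.95, SE 0.07, adjusted p = 5.29e-08) were down-regulated, while Myc, which also stands in this list, rose. Outside the rule and chosen after their values were seen, the macrophage factor Irf8 was lower as well (-0.41, SE 0.059, adjusted p = 6.63e-05), and Maf had 2, 5 and 0 counts in control and 30, 15 and 24 in LPS libraries (3.37, SE 0.62, adjusted p = 0.00058).

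**Figure D4:**
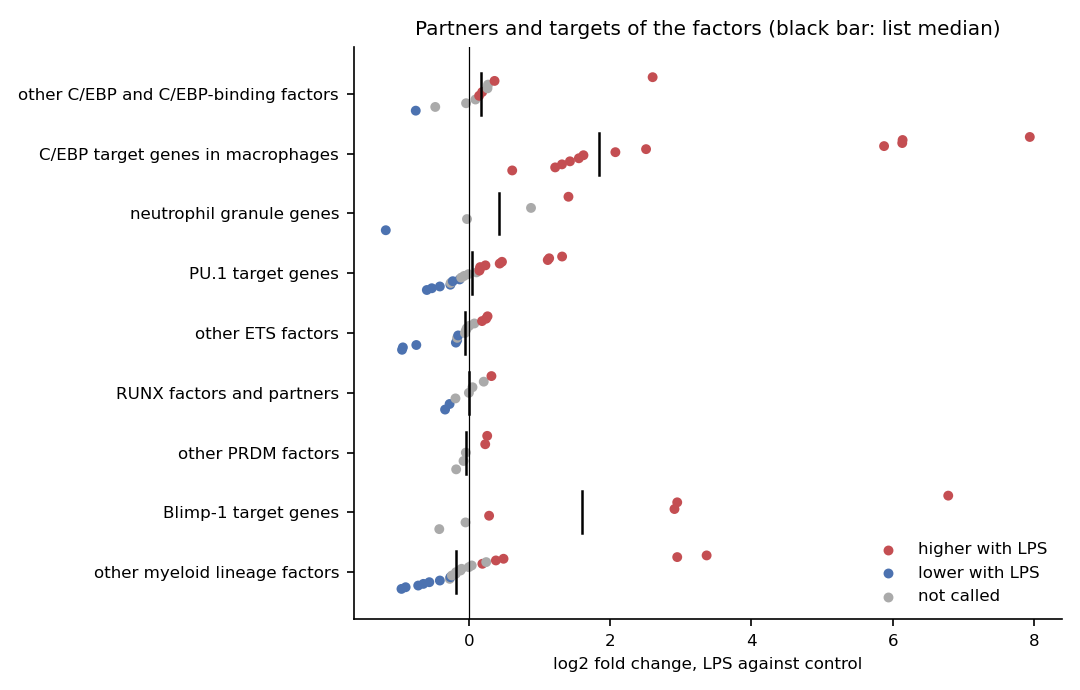
Partners, targets and relatives of the factors. Each point is a tested gene placed by its log2 fold change, LPS against control, red where called higher, blue where called lower and grey where not called, and the black bar is the median of the list; all 12 C/EBP targets lie to the right of 0, while PU.1 targets, other ETS factors and other myeloid lineage factors lie on both sides. The points furthest right are genes with few or no control counts, whose fitted values are imprecise and which passed the filter on low counts only through their LPS libraries.

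The genes whose pattern over the 6 libraries was most like that of a factor were found by Pearson's r of log2(CPM + 0.5) among 11041 protein-coding genes. For Ets2 these were Cmpk2 (r = 0.99987), Ifih1 (0.99987) and Igtp (0.99984), for Prdm1 they were Csf2rb2 (0.99839), Etnk1 (0.99825) and Oas3 (0.99812), and for Spi1 they were Basp1 (0.99927), Mafk (0.99856) and Tlr3 (0.99843). With 2 groups of 3 libraries many genes share such a pattern: r was above 0.95 for 1116 genes with Ets2, 1017 with Prdm1 and 1034 with Spi1.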

How the data were processed

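RNA-seq libraries of N9 microglia, 3 control and 3 LPS, were grouped by their labels. The authors deposited raw read counts per gene, whole numbers without normalization, and, per the submitters' processing notes, featureCounts 1.5.0-p3 and build mm10 were used; the aligner, annotation and use of strand are not given in the sources used here. A deposited table of the authors' own comparison (fold changes, p-values, normalized values) was not used.

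Counts were analysed with edgeR 4.0.16 in R 4.3.3 (TMM, filterByExpr by group, quasi-likelihood test without a replicate term, default prior count), leaving 12296 of 54532 genes, of which 274 reached the filter's level in all 3 LPS libraries but not in all 3 control libraries and 266 the reverse. CPM use TMM library sizes. A standard error is the log2 fold change divided by the square root of F. A floor of 3 counts per library (0.161 to 0.19 CPM) was used where a whole group was at or under it; the reads carry no molecular identifiers, so such floors cover counting error alone. Permutation tests used scipy 1.17.1. Fits were checked on simulated counts. Within each group, all pairs of libraries differed by more than sampling noise (chi-square per gene 3.55 to 7.71).

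The members and gene lists were chosen with earlier results of these data known. From each list, up to 4 genes with the lowest adjusted p, among those called and with a mean of at least 10 counts, were named. Cop1 was counted once, under either of its names, and for Ddit3, whose symbol has 2 rows, the row with more counts was used. Promoters came from RefSeq and exons from GENCODE on GRCm38, in which all 9 members have the deposited positions. Alternatives were DESeq2 1.42.0, RLE size factors, no filter, a mean of 10 counts, a fit to protein-coding genes, glmTreat, robust dispersion, the replicate number as a block, a prior count of 2 and each library left out; control replicate 1 alone was added after seeing the data.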

Additional observations from a re-analysis of the deposited data

How the results depend on the processing

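The calls of Cebpa, Cebpb, Cebpd, Spi1, Prdm1 and Ets2 were the same under DESeq2, RLE size factors, both other filters, a prior count of 2, robust dispersion, protein-coding genes alone and each library left out. DESeq2 called 1980 genes higher and 1615 lower. Under glmTreat, which asks for a change beyond a log2 fold change of 1.5, Prdm1 alone was called (1 higher, 0 lower, 1 DEG), and the values of Cebpa (-0.385), Cebpb (0.982), Cebpd (1.128), Spi1 (0.585) and Ets2 (1.539) were not called as beyond it; over all genes it called 181 higher and 2 lower. With no filter on low counts, 91 genes in place of 31 were down-regulated DEG. With control replicate 1 alone, chosen after seeing the data, 1151 genes in place of 1927 were lower, 2 other C/EBP and C/EBP-binding factors were higher, 0 neutrophil granule genes and 3 other ETS factors were lower, and Runx1 had a log2 fold change of 0.351 (edgeR adjusted p = 0.0683); the lone control library is assumed there to vary like the LPS libraries. DESeq2 also called 0 neutrophil granule genes lower.

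When each library was left out in turn, 1 to 2 factors were DEG (1 without control replicate 1), and 38 to 62 genes were down-regulated DEG (49 without control replicate 1, 62 without LPS replicate 1, 52 without LPS replicate 2 or LPS replicate 3). The log2 fold change of Runx1 ranged from -0.044 (without control replicate 1) to 0.173, and was -0.03 without LPS replicate 3, and that of Cebpg ranged from -0.074 to 0.054 (without LPS replicate 1). The number higher ranged from 2 to 4 for other C/EBP and C/EBP-binding factors, 1 to 3 for other ETS factors, 1 to 2 for RUNX factors and partners and 1 to 2 for other PRDM factors, and the number of neutrophil granule genes lower from 0 to 1. The differences of the C/EBP shares kept their direction with each library left out, with that of Cebpd between 0.184 (without LPS replicate 2) and 0.62 percentage points (without LPS replicate 3). They also kept it, at other sizes, with summed counts not scaled by length: 10.5 for Cebpb, -5.86 for Cebpa, -5.76 for Cebpg and 1.18 for Cebpd, in place of 5.92, -4.25, -2.03 and 0.387.

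The libraries share replicate numbers, but not every same-numbered pair deviated together (correlations of 0.136, 0.0588 and -0.00415 for numbers 1, 2 and 3): control replicate 1 was closest to LPS replicate 1, control replicate 2 to LPS replicate 3 (0.0912) and control replicate 3 to LPS replicate 1 (0.0075). With the replicate number as a block, 2454 genes were higher and 2020 lower, with 297 and 32 DEG, and no call of a factor changed: Cebpd had a log2 fold change of 1.115 and Runx1 of 0.084 (edgeR adjusted p = 0.421).

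Depth limited Cebpe and Prdm1, with 0 to 5 and 2 to 4 counts in the libraries where they were lowest. The overlap of Cebpb with Tmem189 and of Cebpd with Spidr could not be resolved, as the use of strand is not given. The data cover a single line, dose and time, and mRNA only.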
